A study of Mus musculus with 18 samples.

Results

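This report concerns 6 of the 18 RNA-seq libraries of the series, the 3 libraries labelled KO#2 and the 3 wt libraries taken after 24 h of induction into epiblast-like cells (EpiLCs). The members were the samples whose titles give these lines and this time, and all of them were used. Both groups were mouse induced pluripotent stem cells (iPSCs). The wt cells came from 1 clone (#1) with an intact Hmga2 gene and the others from 1 Hmga2 KO clone (#2). Before induction the iPSCs had been kept on mitotically inactivated feeder fibroblasts with leukaemia inhibitory factor (LIF) and the inhibitors PD0325901 and CHIR-99021. For induction they were plated on a Geltrex matrix with Activin A and bFGF. Since each genotype was represented by a single clone, the loss of Hmga2 and other differences between the 2 clones cannot be told apart. The 3 libraries of a group are labelled as biological replicates. The edgeR p-values of the main fit below rest on the spread between such replicates, estimated over all 18 libraries of the series.

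Hmga2 is a small chromatin protein that binds the minor groove of AT-rich DNA through its AT-hooks, and Hmga1 is its closest relative. Naive pluripotent cells are held in their state by LIF signalling through Stat3 and by a network of transcription factors that includes Nanog, Klf4, Tbx3 and Esrrb. When LIF and the inhibitors are withdrawn and FGF and Activin are supplied, this network is switched off, and factors of the formative epiblast such as Pou3f1, Otx2 and Fgf5 come on together with the de novo DNA methyltransferases. The comparison asks how far RNA levels in the libraries labelled KO#2 differed from wt cells at the first day of this transition.

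Total counts at 24 h were between 19675403 and 23872837 in the wt libraries and between 13448569 and 17823888 in those labelled KO#2. Levels are given as CPM, the count of a gene divided by its library's total and by that library's TMM factor, which corrects for composition. A level of 3 counts in a library, taken as the smallest detectable, was worth 0.116 to 0.301 CPM, and this floor covers counting error only. Across genes, log2 CPM of libraries within a group had Pearson correlations of 0.974 to 0.982 (wt) and 0.959 to 0.974 (labelled KO#2), and of 0.885 to 0.928 between groups. Genes are not independent replicates, and these values only describe the libraries.

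The libraries differed in what kinds of RNA they held. Protein-coding genes took 58.2, 41.6 and 63.4% of the counts in wt replicates 1, 2 and 3, and 82.3, 82.5 and 84.7% in those labelled KO#2. The groups did not overlap, with a difference of 28.7 percentage points (two-sided exact permutation test, p = 0.1, the smallest that 3 against 3 libraries can give). The remainder in wt cells was largely made of short structural RNAs. The type misc_RNA, which holds the 7SL RNAs of the signal recognition particle, 7SK and the Y RNAs, took 20.3, 31.6 and 19.8% in wt cells and 3.67, 7.09 and 6.35% in the libraries labelled KO#2. The 7SL gene Rn7s1 alone held 11.7, 15.6 and 12.9% against 1.38, 2.48 and 2.16%, and 7SK (Rn7sk), which holds the elongation factor P-TEFb inactive, 4.86, 7.11 and 4.78% against 0.791, 1.72 and 1.58%. Rn7s2, also a 7SL gene, overlapped between the groups, with 3.68, 8.83 and 2.14% against 1.48, 2.86 and 2.60%. So did the noncoding gene Gm26917, with 7.02, 8.81 and 5.57% against 7.07, 2.72 and 2.17%. At 0 h the mean share of Rn7s2 was 0.894% in wt cells and 2.37% in those labelled KO#2. Wt replicate 2 stood furthest out, with the largest structural RNA share. The 3 libraries of the other KO clone (KO#1) at 24 h held a mean of 51.6% protein-coding counts, and the 0 h libraries labelled KO#2 78%. At 0 h the wt libraries held 61.3%. No measurement of RNA integrity was used here, and the part of composition in the gene results was not tested beyond the alternatives given beside them. In bulk RNA, fewer cells of a type and less RNA per cell cannot be told apart.

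**Figure D1:**
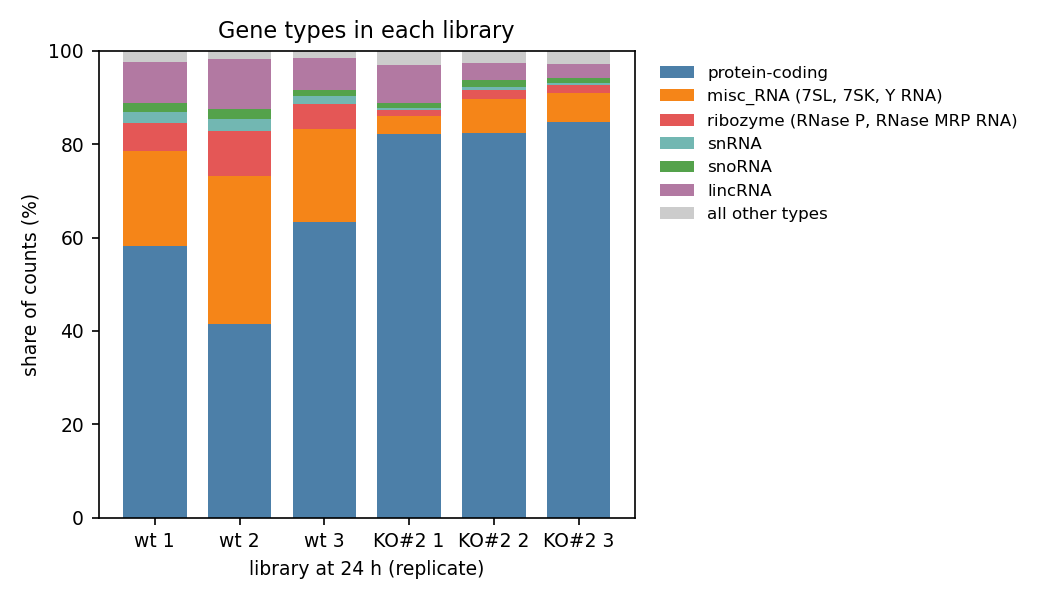
Stacked bars give the share of counts (%) of each gene type in the 3 wt libraries and the 3 libraries labelled KO#2 at 24 h. Protein-coding genes reached 63.4% at most in wt cells and 82.3% at least in those labelled KO#2, and the misc_RNA share was largest in wt replicate 2, at 31.6%.

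Of 16619 genes tested with edgeR's quasi-likelihood test, 6197 had a Benjamini-Hochberg adjusted p-value under 0.05 and are called different, which is 37.3% of them. In the libraries labelled KO#2, 3536 genes were higher (21.3%) and 2661 lower (16.0%). Among 14045 protein-coding genes the shares were 18.4% and 16.3%. In 29.7% of the tested genes every library labelled KO#2 lay above every wt library, and in 22.4% every one lay below. These shares are the background against which the counts of gene groups below stand. The median log2 fold change was 0.20, with quartiles of -0.51 and 0.97. The split rested on the scaling. Without TMM factors (library sizes alone) the median moved by 1.04, and 94.8% of 10208 calls were higher, against 57.1% of 6197. Fitted to the 6 libraries alone, the majority turned, with 2975 genes higher and 3159 lower (48.5% higher). Directions below are therefore relative to the bulk of genes after TMM.

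Hmga2 itself (ENSMUSG00000056758, chr10:120361275-120476469 on GRCm38) did not separate the groups. It had 5.87, 5.51 and 5.93 CPM in wt replicates 1, 2 and 3 and 10.5, 3.02 and 3.48 CPM in those labelled KO#2, where replicate 1 lay above all wt libraries and the others below them (log2 fold change -0.04, SE 0.60, adjusted p = 0.966, edgeR). Without that replicate the log2 fold change was -0.82. At 0 h, RNA of the same gene had a log2 fold change of -1.90 (adjusted p = 0.023, edgeR). The table gives 1 count per gene, so reads of a disrupted transcript could be included, and the level therefore does not check the label. For this reason the wording "labelled KO#2" is kept throughout. Hmga1, the other AT-hook gene of the family, was lower in all 3 libraries, with 699, 772 and 962 CPM in wt cells and 127, 45.8 and 79.5 CPM in those labelled KO#2 (log2 fold change -3.27, SE 0.39, adjusted p = 1.56e-05, edgeR). Its log2 fold change was -3.41 at 0 h. In KO#1, compared with the same wt libraries, it was -2.16 at 24 h. Lin28a, an RNA-binding protein that blocks let-7 maturation and so acts upstream of Hmga2 in other cells, had 393, 374 and 485 CPM against 255, 165 and 383 CPM and was not called (-0.64, SE 0.46). Of the 7 genes of the Hmga, Lin28 and Igf2bp families, Hmga1 alone was called, and with offsets corrected for GC content and transcript length 2 were lower.

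The naive network stood partly higher in the libraries labelled KO#2. Of 15 naive factors tested, 7 were higher and 1 lower, with a median log2 fold change of 0.52 against 0.20 over all genes. Tbx3, a T-box factor that sustains naive self-renewal, rose the most. It had 3.58, 3.31 and 2.59 CPM in wt cells and 42.6, 29.6 and 8.21 CPM in those labelled KO#2 (log2 fold change 3.08, SE 0.49, adjusted p = 0.000169, edgeR). Prdm14, which represses FGF receptor signalling in naive cells, had 0.645, 0.701 and 0.679 CPM against 2.25, 7.04 and 1.91 CPM (log2 fold change 2.47, SE 0.56, adjusted p = 0.00237, edgeR). Neither gene overlapped between the groups. The Krüppel-like factors Klf5 and Klf4 had 27.5, 20.1 and 8.21 CPM and 18.9, 14.9 and 4.00 CPM in those labelled KO#2, against at most 5.56 and 4.46 CPM in wt cells, with log2 fold changes of 1.92 (SE 0.50) and 1.86 (SE 0.45). For Klf4, replicate 3 lay within the wt range, and for Klf5 the groups did not overlap. The factor Tfcp2l1 (1.83, SE 0.35), the homeobox gene Nanog (1.71, SE 0.47) and Zfp42, also known as Rex1 (1.10, SE 0.27), were higher too, though Nanog was not called without replicate 2 labelled KO#2 (1.13). Across Tbx3, Klf4, Klf5, Nanog and Tfcp2l1, replicate 3 was the lowest of the libraries labelled KO#2. Tdh, the threonine dehydrogenase on which mouse naive cells depend, was lower, with 113, 125 and 162 CPM against 32.5, 35 and 34.1 CPM (-1.98, SE 0.26). Esrrb and Klf2 were not called (0.38, SE 0.33 and 0.37, SE 0.36). Without wt replicate 2, which stood furthest out in structural RNA, and replicate 1 of those labelled KO#2, which did so in fibroblast genes, 4 of the naive factors were called higher. With offsets corrected for GC content and transcript length Tfcp2l1 was at 1.07, still called, and Klf2 was called as well (1.07).

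LIF pathway genes were higher in part, from the receptor down to the transcription factor. Of 12 tested, 6 were higher and 1 lower. Lifr, the ligand-binding subunit of the LIF receptor, had 23.4, 23.9 and 28.6 CPM in wt cells and 119.9, 79.8 and 53.1 CPM in those labelled KO#2 (log2 fold change 1.73, SE 0.36, adjusted p = 0.00136, edgeR). The shared subunit Il6st (gp130) rose by 1.17 (SE 0.23), the kinase Jak1 by 0.98 (SE 0.25) and the transcription factor Stat3 by 0.97 (SE 0.31) on the log2 scale. Gbx2, a Stat3 target in naive cells, was lower (-1.15, SE 0.42). Lifr and Il6st have long transcripts, and in a fit whose offsets were corrected for GC content and transcript length their log2 fold changes were 0.89 and 0.50, and that of Jak1 0.62, all still called. In that fit 9 genes of the list were higher, and without wt replicate 2 and replicate 1 labelled KO#2 3. Stat3 was not called without wt replicate 1 or 2 or replicate 1 or 2 labelled KO#2 (0.84 to 0.92). Gbx2 was not called when any 1 of the 6 libraries was left out (-1.21 to -1.10).

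On the formative side, 3 of 11 genes were lower and 0 higher, with a median log2 fold change of -0.67, which was 0.31 with library sizes alone. Pou3f1 (Oct6), a POU factor of the epiblast, had 126, 125 and 185 CPM in wt cells and 45.6, 14 and 31.1 CPM in the libraries labelled KO#2 (log2 fold change -2.26, SE 0.35, adjusted p = 0.000129, edgeR), and the groups did not overlap. Sox3 fell by 1.82 (SE 0.37) and Sall2 by 1.00 (SE 0.38) on the log2 scale, and Sall2 was not called without wt replicate 2 or 3 or replicate 1 or 2 labelled KO#2 (-1.13 to -0.64). Sox3 was at -0.88 with the GC- and length-corrected offsets, still called. Fgf5 and Otx2, the markers most used for EpiLCs, were not called, with 9.5, 10.7 and 22.2 CPM of Fgf5 in wt cells and 13, 6.27 and 16.1 CPM in those labelled KO#2, and 29.9, 41.6 and 57.2 CPM of Otx2 against 64.3, 35.3 and 55.1 CPM. Their log2 fold changes were -0.26 (SE 0.54) and 0.26 (SE 0.46). The methyltransferase gene Dnmt3a had a log2 fold change of -0.71 (adjusted p = 0.0845, edgeR). With offsets corrected for GC content and length it was -1.23 and called, and 6 of the formative genes were then lower. Of the 8 pluripotency genes used in both states, Sox2 was higher (0.83, SE 0.27), Pou5f1 (Oct4) was lower (-0.76, SE 0.25, but 0.26 with library sizes alone) and 6 were not called. Pou5f1 was not called with the GC- and length-corrected offsets (-0.36) and was not called without wt replicate 3 or replicate 1 or 2 labelled KO#2 (-0.80 to -0.60). Sox2 was not called without wt replicate 1 or 2 or replicate 1 or 2 labelled KO#2 (0.70 to 0.78).

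**Figure D2:**
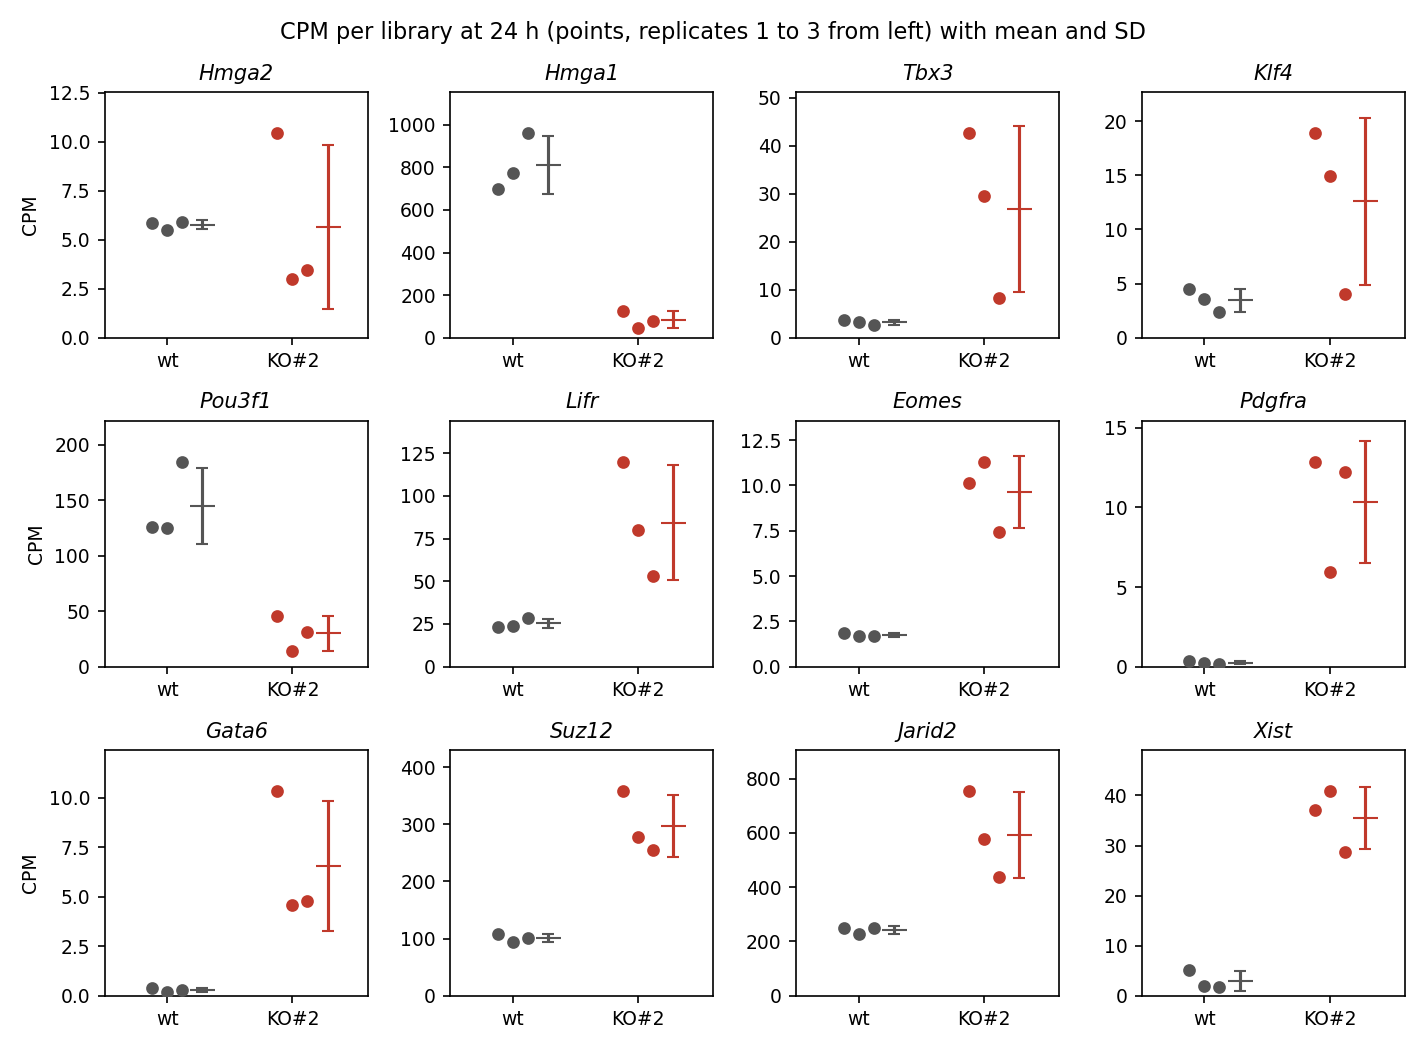
Points are CPM of 12 genes in each library at 24 h, with the mean and SD of the 3 libraries beside them, grey for wt cells and red for the libraries labelled KO#2. Hmga2 overlaps between the groups and Klf4 overlaps through replicate 3, whereas the 3 values of Hmga1 and Pou3f1 lie below, and those of Tbx3, Lifr, Eomes, Pdgfra, Gata6, Suz12, Jarid2 and Xist above, the wt values.

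In the FGF-ERK pathway, through which FGF drives the exit from naive pluripotency, 4 of 13 genes were higher and 1 lower. Feedback inhibitors were among them. Spry1 had 3.93, 5.11 and 7.35 CPM in wt cells and 19.9, 14 and 15 CPM in those labelled KO#2 (log2 fold change 1.57, SE 0.29, adjusted p = 0.000472, edgeR), and the phosphatase gene Dusp4 had a log2 fold change of 1.19 (SE 0.37), which was not called without wt replicate 1 or 2 or replicate 1 or 3 labelled KO#2 (0.95 to 1.10). Spred1 was called at 0.86 (SE 0.26) but not with the GC- and length-corrected offsets (0.19), and was not called without wt replicate 2 or replicate 1 labelled KO#2 (0.73 to 0.80). Spry2, another inhibitor of that family, had 52.1, 49.8 and 60.5 CPM against 36.4, 37.4 and 32.8 CPM and was not called (-0.61, SE 0.24), although the groups did not overlap. It was called lower by DESeq2 (-0.61), with GC-corrected offsets (-0.77), in the 6 libraries alone (-0.70) and after thinning (-0.65). The ERK-induced ETS factor Etv4 was lower, with 139, 159 and 147 CPM against 68.8, 64.8 and 51.3 CPM (-1.27, SE 0.35), and was not called with the GC- and length-corrected offsets (-0.65). With wt replicate 2 and replicate 1 labelled KO#2 left out, 1 gene of the list was called higher, as without either of them alone. Egr1, an immediate early gene, was called higher (3.90, SE 1.29) through 1 library. Its levels were 45.6, 1.66 and 1.17 CPM in replicates 1, 2 and 3 labelled KO#2 and 1.17, 0.801 and 1.17 CPM in wt cells. Its log2 fold change without that library was 0.42, and it was not called without wt replicate 1, 2 or 3 or replicate 1 labelled KO#2 (0.42 to 3.98). Of 15 immediate early genes, Egr1 and Jun (1.30, SE 0.45) were called higher and 0 lower. Jun was not called without wt replicate 1 or 2 or replicate 1 or 2 labelled KO#2 (1.07 to 1.25), so that 0 genes of the list were called without wt replicate 1 or wt replicate 2, and 1 with the replicate block. With the GC- and length-corrected offsets 5 were higher, with a median of 0.83 against 0.37, and in the 6 libraries alone 2 were higher and 2 lower.

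Few genes of Activin and Wnt signalling were called. Of 14 Nodal-Activin genes, 2 were higher, the signal transducer Smad3 (1.32, SE 0.35) and the repressor Skil (1.15, SE 0.23), and 0 were lower. With the replicate block, and likewise without replicate 3 labelled KO#2, 2 of the list were lower. Skil was not called with the GC- and length-corrected offsets (0.41). Of 12 Wnt genes, 3 were higher. Axin2, the feedback target most often used as a Wnt readout, had 9.21, 7.81 and 7.91 CPM in wt cells and 39.9, 17.3 and 16.7 CPM in those labelled KO#2 (log2 fold change 1.56, SE 0.42, adjusted p = 0.00809, edgeR). Gsk3b (1.48, SE 0.38) and Apc (0.80, SE 0.22), of the complex that degrades beta-catenin, were the others. Gsk3b was at 0.76 with the GC- and length-corrected offsets. Apc has one of the longest transcripts of the list, and its value was -0.16 with the GC- and length-corrected offsets. Axin2 was not called without replicate 1 labelled KO#2 (1.03), and without that library and wt replicate 2 0 of the Wnt genes were called.

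Genes of the primitive endoderm, the extraembryonic lineage that separates from the epiblast in the blastocyst, were mostly higher. Of 14 tested, 11 were higher and 0 lower, with a median log2 fold change of 2.31. The receptor Pdgfra, an early marker of this lineage, had 0.352, 0.20 and 0.185 CPM in wt cells and 12.9, 5.92 and 12.3 CPM in those labelled KO#2 (log2 fold change 5.31, SE 0.60, adjusted p = 7.71e-06, edgeR). Gata6, the factor that specifies it, had 0.411, 0.20 and 0.309 CPM against 10.3, 4.57 and 4.78 CPM (log2 fold change 4.33, SE 0.63, adjusted p = 7.83e-05, edgeR). The wt values of both lay near the floor of detection. Basement membrane genes followed, with 7.39, 8.82 and 14.4 CPM of Col4a1 in wt cells and 94.2, 59.1 and 29.9 CPM in those labelled KO#2 (2.58, SE 0.44), and with Col4a2 at 2.93 (SE 0.49) and Lama1 at 2.76 (SE 0.44). Sox17, a factor of definitive and primitive endoderm, had 0.469, 0.301 and 0.309 CPM against 1.31, 1.01 and 2.17 CPM (2.01, SE 0.60). Sox17 was not called without wt replicate 2 or 3 or replicate 3 labelled KO#2 (1.64 to 1.92). Sparc, a matrix protein of parietal endoderm, had 184, 217 and 307 CPM against 204, 156 and 116 CPM and was not called (-0.57, SE 0.28). The count was 12 with the GC- and length-corrected offsets, 9 without replicate 1 labelled KO#2 and 7 without that library and wt replicate 2.

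Markers of fibroblasts, the feeder cells of the previous culture, were higher as well. Of 8 tested, 6 were higher and 0 lower. Their summed level ranged from 19 to 34.6 CPM in wt cells and from 71 to 219 CPM in those labelled KO#2, and no marker was at 0 in any library. Collagen gene Col1a1 was at 58.2, 4.95 and 6.6 CPM in replicates 1, 2 and 3 labelled KO#2, against 3.52, 1.9 and 3.83 CPM in wt cells (2.88, SE 0.98), and without replicate 1 its log2 fold change was 0.89. It was not called without wt replicate 1, 2 or 3 or replicate 1 labelled KO#2 (0.89 to 3.06). Col3a1 was higher in all 3 (53.3, 20.7 and 37.7 CPM against 3.34, 1.8 and 3.83 CPM, log2 fold change 3.61, SE 0.59, adjusted p = 0.000201, edgeR). Without replicate 1, 3 of the markers were called. Fibroblasts also make collagen IV, laminins and Pdgfra, and the part of feeder cells in those results was not tested.

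Of 12 mesendoderm genes, 2 passed the filter on low counts. Eomes, a T-box factor of the primitive streak and trophoblast, had 1.88, 1.7 and 1.67 CPM in wt cells and 10.1, 11.3 and 7.43 CPM in those labelled KO#2 (log2 fold change 2.45, SE 0.35, adjusted p = 7.39e-05, edgeR). In the neural list, 2 of 6 were lower, Sox1 (-1.16, SE 0.35) and Gbx2, and 0 higher. Sox1 was not called without wt replicate 1 or replicate 3 labelled KO#2 (-1.03 to -0.92), and Gbx2 not with the GC- and length-corrected offsets (-0.50). Of 9 trophoblast genes, Eomes and Hand1 were higher and Ascl2 lower (-1.08, SE 0.41). Ascl2 was not called without wt replicate 1 or 3 or replicate 1, 2 or 3 labelled KO#2 (-1.22 to -0.61), and it was also not called with the replicate block, with the GC- and length-corrected offsets (-0.50) or without the filter on low counts. The factor Hand1 had 16, 22 and 3 counts in those labelled KO#2 and 0, 0 and 0 in wt cells, while the keratin gene Krt18 had 12.3, 30.0 and 10.5 CPM in those labelled KO#2 and 18.1, 25.8 and 46.8 CPM in wt cells and was not called (-0.78, SE 0.59). Of 14 germline genes, Sycp1 (1.51, SE 0.55) and Asz1 (1.89, SE 0.67) were higher and 0 were lower. Asz1 was not called without wt replicate 1, 2 or 3 or replicate 2 labelled KO#2 (1.44 to 2.21), Sycp1 was not called without wt replicate 2 or 3 or replicate 1 or 2 labelled KO#2 (1.17 to 1.59) and not called with the GC- and length-corrected offsets (0.82), and 0 of the list were called without wt replicate 2 and replicate 1 labelled KO#2. None of 9 genes of the 2-cell-like state was called, and 0 had an unadjusted p under 0.05. DESeq2, which tested 10 genes of the list, called 0 higher and 1 lower.

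**Figure D3:**
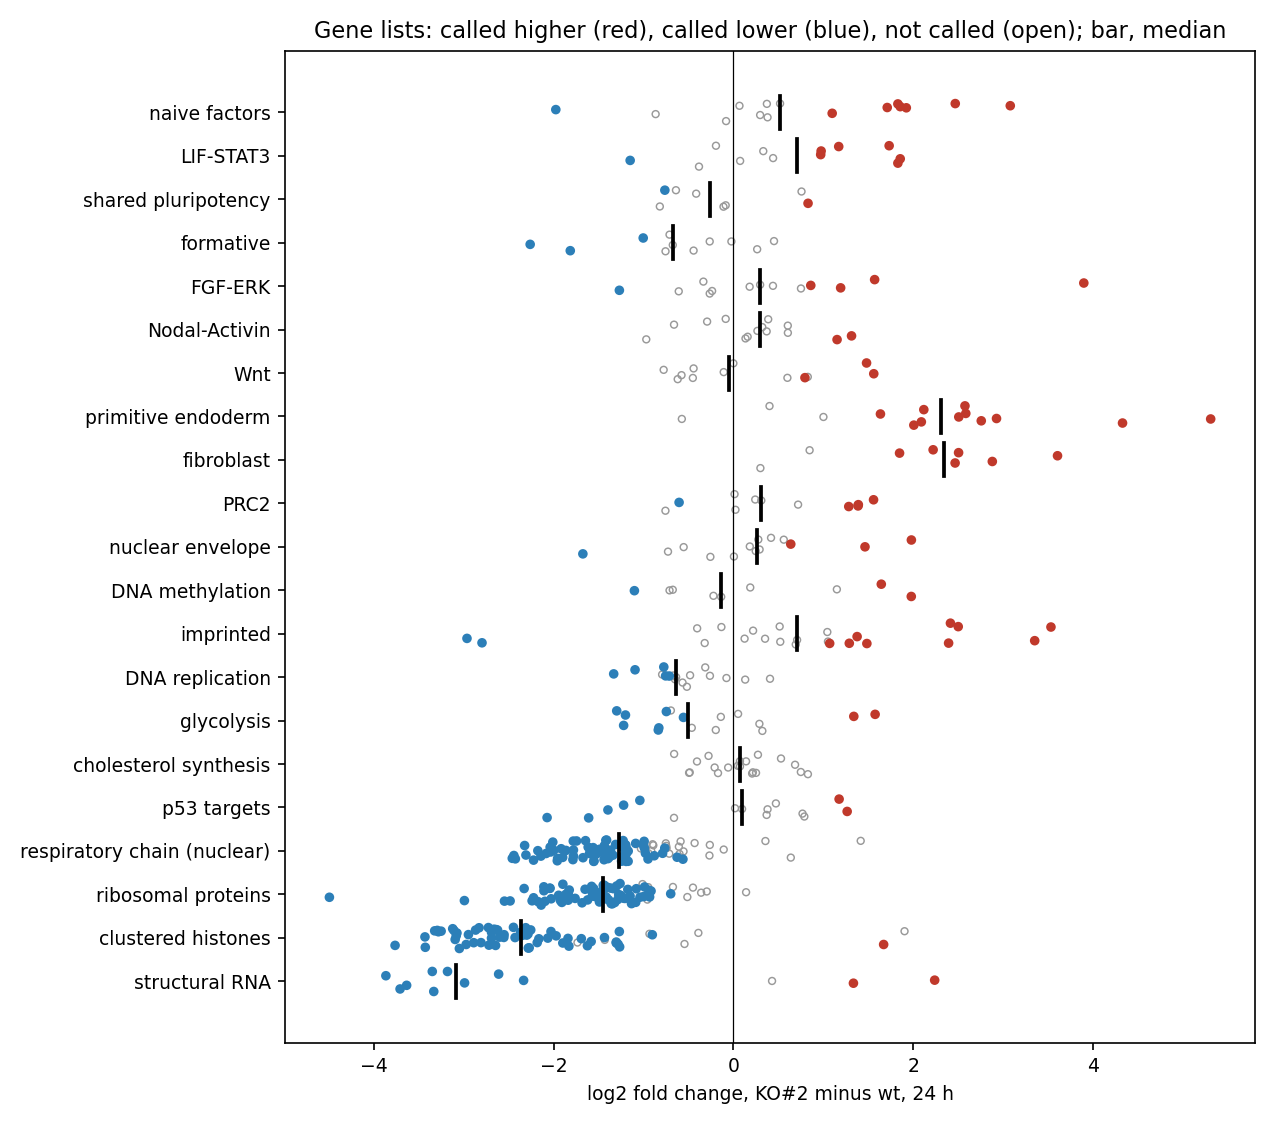
Each point is the log2 fold change of 1 gene between the libraries labelled KO#2 and wt cells at 24 h, for 21 gene lists, and the black bar is the median of a list. Red and blue points were called higher and lower, and open points were not called. Primitive endoderm and fibroblast genes have medians above 2, and the last 4 lists, all of mostly short transcripts, have medians under -1.

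In Polycomb repressive complex 2 (PRC2), which methylates histone H3 at lysine 27, 4 of 11 genes were higher and 1 lower. The core subunit gene Suz12 had 108, 94.2 and 100.1 CPM in wt cells and 358, 278 and 255 CPM in those labelled KO#2 (log2 fold change 1.56, SE 0.21, adjusted p = 4.71e-05, edgeR). The accessory subunits Jarid2 (1.28, SE 0.27), Aebp2 (1.39, SE 0.24) and Mtf2 (1.39, SE 0.44) rose with it, the histone chaperone Rbbp4 was lower (-0.60, SE 0.22, but 0.43 with library sizes alone), and the catalytic subunit Ezh2 was not called, at 68.5, 81.1 and 78.6 CPM against 114, 72.6 and 96.4 CPM (0.31, SE 0.24). With the GC- and length-corrected offsets Suz12 was at 1.09, Jarid2 at 0.65, Aebp2 at 0.69 and Mtf2 at 0.82, all still called. Mtf2 was not called without wt replicate 2 or 3 (1.13 to 1.37). Rbbp4 was not called when any 1 of the 6 libraries was left out (-0.67 to -0.50). Without wt replicate 2 and replicate 1 labelled KO#2, 3 genes of the complex were higher. In KO#1, against the same wt libraries, Suz12 was at 0.00 and Jarid2 at 0.21, and neither was called.

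Of 14 nuclear envelope genes, 3 were higher and 1 lower. Banf1, the factor that ties chromatin to inner membrane proteins, had 244, 192 and 234 CPM in wt cells and 56.2, 64.5 and 89.3 CPM in those labelled KO#2 (log2 fold change -1.68, SE 0.27, adjusted p = 0.000161, edgeR). The genes that were higher, 21.4% of the list and close to the share over all genes, were Sun1 (0.64, SE 0.22), Sun2 (1.46, SE 0.41) and Syne1 (1.98, SE 0.61), whose proteins link the nucleus to the cytoskeleton. The lamin gene Lmnb1 had 181, 166 and 252 CPM against 339.9, 177 and 194 CPM (0.25, SE 0.32) and emerin, Emd, 72.4, 77.2 and 79.6 CPM against 28.4, 63.8 and 46.1 CPM (-0.73, SE 0.45), and neither was called. For Emd all libraries labelled KO#2 lay below all wt libraries, and in the fit of the 6 libraries alone it was called lower (-0.81, adjusted p = 0.0372, edgeR). Sun1 was not called without wt replicate 1 or 2 or replicate 1 or 2 labelled KO#2 (0.55 to 0.63), Sun2 was not called without wt replicate 1 (1.22), and Syne1 was not called without wt replicate 2 or replicate 2 labelled KO#2 (1.73 to 1.76) and not called with the GC- and length-corrected offsets (0.80). Without wt replicate 2 and replicate 1 labelled KO#2, 0 envelope genes were higher (1 without wt replicate 1 or 2 or replicate 2 labelled KO#2 alone) and 1 lower.

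Among genes of H3K9 methylation and HP1, 3 of 13 were higher (23.1%) and 2 lower (15.4%). These shares were close to those over all genes, 21.3% and 16.0%. Without the filter on low counts 2 were higher and 0 lower. The methyltransferase genes Setdb1 (-0.76, SE 0.22) and Suv39h1 (-0.77, SE 0.24) were lower, with 0.27 and 0.24 under library sizes alone. Setdb1 was not called without wt replicate 3 (-0.64) and Suv39h1 not called without wt replicate 3 or replicate 1 labelled KO#2 (-0.67 to -0.58). The remodeller Atrx was higher (1.14, SE 0.22), but was at 0.11 and not called with the GC- and length-corrected offsets. With the same 2 libraries left out, 1 of this list was higher and 0 lower, as was the case without wt replicate 3 alone, and 1 was higher without replicate 3 labelled KO#2. In the DNA methylation list, 2 of 9 genes were higher (22.2%) and 1 lower (11.1%), against 21.3% and 16.0% over all genes. The dioxygenase genes Tet2 and Tet1 were higher (1.98, SE 0.33 and 1.65, SE 0.39) and the glycosylase Tdg, which excises the products of Tet enzymes, was lower (70.9, 66.6 and 89.3 CPM against 35.4, 28.3 and 42 CPM, log2 fold change -1.10, SE 0.20, adjusted p = 0.000515, edgeR). Corrected values were 1.19 for Tet2 and 0.55 for Tet1, the latter not called. In that fit 1 gene of the list was higher and 3 were lower.

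The lowest medians belonged to lists of short transcripts. All 12 structural RNAs of the list were tested, 9 were lower, and the 2 that were higher, Malat1 (2.24, SE 0.35) and Neat1 (1.34, SE 0.34), are long nuclear RNAs. Neat1 was not called with the GC- and length-corrected offsets (0.17). The median of the list was -3.09, and -1.36 with those offsets, where 8 were lower. Over all 191 tested transcripts under 200 bases the median went from -2.95 to -1.01. The Y RNAs, which bind the Ro60 protein, are shown as examples because they are among the shortest transcripts tested. Both are made by RNA polymerase III, whose transcripts end in a run of T, given in capitals. The sequences are from GENCODE M21 and lie on GRCm38 at chr6:47788069-47788180 (minus strand) and chr6:47781624-47781725 (plus strand).
Rny1: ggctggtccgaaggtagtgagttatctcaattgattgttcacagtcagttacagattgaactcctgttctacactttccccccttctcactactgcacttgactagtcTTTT
Rny3: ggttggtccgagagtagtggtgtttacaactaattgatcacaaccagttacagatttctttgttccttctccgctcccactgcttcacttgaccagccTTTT
Rny1 had 55.4, 77.8 and 34.7 CPM in wt cells and 5.49, 4.99 and 3.00 CPM in those labelled KO#2 (log2 fold change -3.64, SE 0.46, adjusted p = 2.50e-05, edgeR), and Rny3 had 93.4, 106 and 37.6 CPM against 5.75, 7.93 and 4.39 CPM (-3.71, SE 0.49). For both, every library labelled KO#2 was below every wt library. Rn7s1 had a log2 fold change of -3.87 (SE 0.55), Rn7sk of -3.18 (SE 0.54), the RNase MRP RNA Rmrp of -2.99 (SE 0.49) and the telomerase RNA Terc of -3.35 (SE 0.55). With the GC- and length-corrected offsets these values were -1.45 for Rny1, -1.32 for Rny3, -2.42 for Rn7s1, -2.07 for Rn7sk, -1.30 for Rmrp and -1.97 for Terc, all still called. By annotated type, 102 of 131 snoRNAs, which guide the modification of ribosomal RNA, and 41 of 50 snRNAs, most of them of the spliceosome, were lower, with medians of -2.73 and -3.22. KO#1 at 24 h had medians of 0.00 and -0.04 against the same wt libraries.

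Histone genes of the replication-dependent clusters, whose mRNAs end in a stem-loop in place of a poly(A) tail, fell almost as a block. Of 65 tested, 58 were lower (89.2%) and 1 higher, with a median log2 fold change of -2.37. The stem-loop of 3 of them is printed as it stands in the GENCODE M21 transcript, with 5 bases on either side in lower case and, in capitals, the 16 bases that matched the histone stem-loop consensus with its pyrimidine and purine positions. The genes lie on GRCm38 at chr13:23697635-23698454, chr3:96220361-96220880 and chr13:22042460-22042944, all on the minus strand.
Hist1h4c: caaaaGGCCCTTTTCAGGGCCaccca
Hist2h2ac: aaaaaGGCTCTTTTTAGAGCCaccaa
Hist1h2ag: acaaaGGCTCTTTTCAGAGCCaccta
Hist1h4c had 1153, 2213 and 1117 CPM in wt cells and 96.8, 136 and 182 CPM in those labelled KO#2 (log2 fold change -3.43, SE 0.42, adjusted p = 1.72e-05, edgeR). Hist2h2ac had 462, 549.7 and 525 CPM against 34.4, 41 and 67.2 CPM (-3.43, SE 0.36), and Hist1h2ag 339.6, 564 and 287 CPM against 34.2, 26.7 and 57.8 CPM (-3.33, SE 0.42). The consensus, searched on the transcript strand of all annotated transcripts of a gene, was found in 34 of the 65 histone genes and in 2 of 13980 other protein-coding genes tested (0.0143%). Genes with a match had 30 of 34 lower, with a median of -2.66, and histone genes without one 28 of 31, with a median of -2.28. A missing match says only that these letters are not in the annotated transcripts. The one histone gene that rose was Hist1h2bq (1.67, SE 0.48), and it was not called without wt replicate 3 (1.33). Near-identical copies within the clusters can share reads, and the values of single histone genes are uncertain for that reason.

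Genes of the cytosolic ribosome and of the respiratory chain, with median transcript lengths of 1094 and 1135 bases, fell as well. Of 83 ribosomal protein genes, 73 were lower (88%) and 0 higher, with a median of -1.45. Rpl29 fell the most, from 958, 924 and 729 CPM in wt cells to 25.4, 41.1 and 49 CPM in those labelled KO#2 (log2 fold change -4.50, SE 0.42, adjusted p = 1.03e-06, edgeR), followed by Rpl34 (-2.99, SE 0.50) and Rps27 (-2.55, SE 0.39). Of 90 nuclear genes of the respiratory chain, 70 were lower (77.8%), with a median of -1.28, such as the complex I subunit Ndufa3 (106, 98.9 and 74.9 CPM against 10.8, 21.1 and 18.9 CPM, log2 fold change -2.46, SE 0.38, adjusted p = 0.000119, edgeR) and the ATP synthase subunit Atp5j2 (-2.43, SE 0.35). Of 13 genes of the mitochondrial genome, 5 were lower, among them mt-Nd1 (-1.56, SE 0.41), and 0 higher. The count was 3 without wt replicate 2 or replicate 2 labelled KO#2, 7 with the GC- and length-corrected offsets and 0 with library sizes alone, where the median was -0.10 against -1.17. For scale, of all protein-coding genes with a longest transcript of 500 to 1000 bases 58% were lower, and of those of 1000 to 2000 bases 35.9%. With the GC- and length-corrected offsets, 74 ribosomal protein, 73 respiratory chain and 54 histone genes were lower. When wt replicate 2 and replicate 1 labelled KO#2 were left out the counts were 43, 44 and 49, and with library sizes alone 16, 17 and 45.

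The differences of protein-coding genes followed transcript length. Across 14045 protein-coding genes the Spearman correlation between the length of the longest transcript and the log2 fold change was 0.48, given as a description across genes of the same libraries. Over all 16517 tested genes with an annotated length it was 0.31, and there the class of 200 to 500 bases had a median of 0.76, above those of the classes from 500 to 4000 bases. Among protein-coding genes the median rose from -1.21 in those of 500 to 1000 bases to 1.03 in genes of 8000 bases or more, of which 446 of 824 were higher and 15 lower. All 3 libraries labelled KO#2 showed it, with medians in the longest class of 1.16, 0.76 and 0.61 relative to the wt mean, against 0.04, -0.10 and 0.06 in the wt libraries themselves. As a share of protein-coding counts, transcripts of 4000 bases or more took 22.8, 22 and 24.9% in wt cells and 44.4, 37.8 and 35.5% in those labelled KO#2, without overlap (two-sided exact permutation test, p = 0.1). The same correlation was 0.22 for the libraries labelled KO#2 at 0 h and -0.07 for KO#1 at 24 h. With GC content it was -0.25 at 24 h and -0.55 at 0 h, and medians at 24 h went from 0.51 in genes under 40% GC to -0.37 in genes of 60% or more. By library, the groups overlapped in both classes. Relative to the wt mean the medians under 40% GC were 0.34, 0.47 and 0.60 in replicates 1, 2 and 3 labelled KO#2 and 0.39, 0.03 and -0.43 in the wt libraries, and at 60% or more they were -0.08, -0.41 and -0.53 against -0.13, -0.02 and 0.15. GC content and length were themselves correlated at -0.24 (Spearman) across these genes. After correction for both, the correlation with length was 0.20, so part of the trend remained in that fit.

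**Figure D4:**
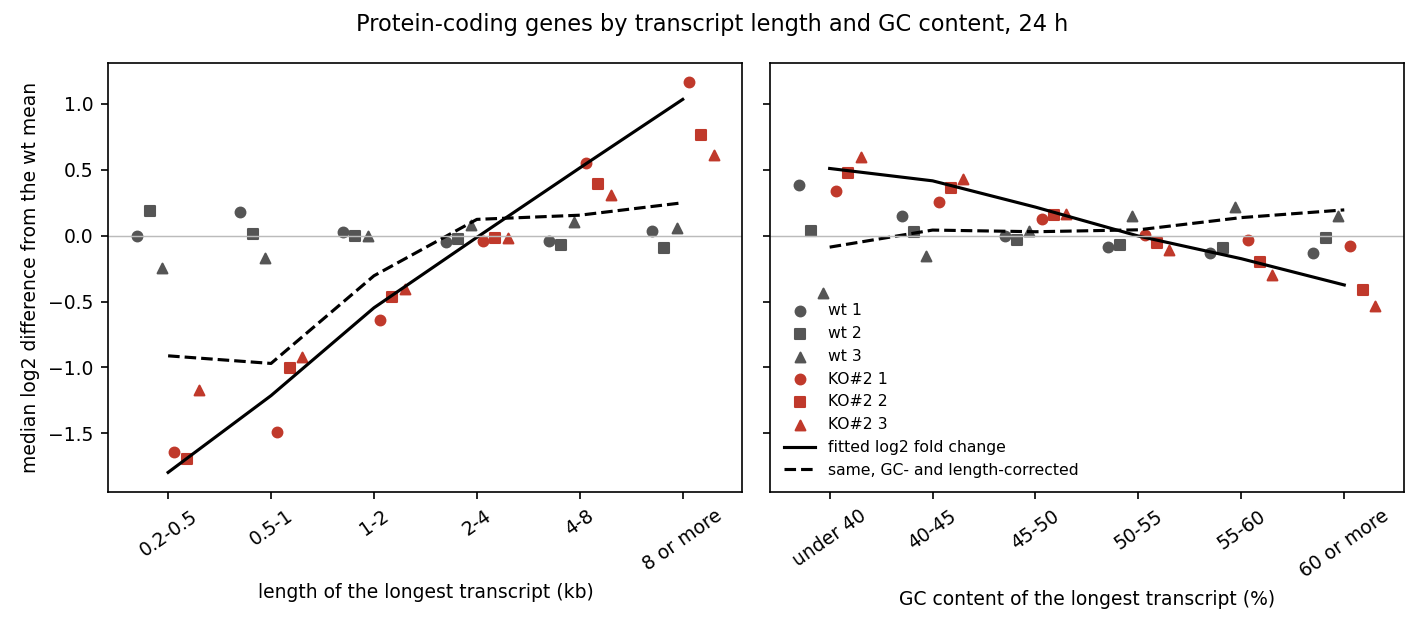
Median log2 difference from the wt mean for protein-coding genes by class of transcript length (left, kb) and of GC content (right, %), for each wt library (grey) and each library labelled KO#2 (red), with the fitted log2 fold change (solid line) and the fit with GC- and length-corrected offsets (dashed line). The red points rise with length in all 3 libraries and the grey points stay near 0 in the longer classes, while by GC content the grey points spread from -0.43 to 0.39 in the lowest class and overlap the red ones, and the dashed line is flatter than the solid line in both panels.

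Growth and metabolism genes differed in part. Of 17 DNA replication genes, 5 were lower and 0 higher, among them Gins2, of the replicative helicase (-1.33, SE 0.32), and thymidine kinase, Tk1 (-1.09, SE 0.25). The list's median was -0.64, and 0.38 with library sizes alone. With the GC- and length-corrected offsets 9 were lower, and without wt replicate 2 or 3 or replicate 1 or 2 labelled KO#2 2 were. Of 16 glycolysis genes, 7 were lower, including Gapdh (2340.3, 2976 and 3068 CPM against 1278, 979 and 1388 CPM, log2 fold change -1.20, SE 0.25, adjusted p = 0.0012, edgeR) and Gpi1 (-1.30, SE 0.24), and 2 were higher, the glucose transporter Slc2a3 (1.58, SE 0.36) and the phosphofructokinase Pfkp (1.34, SE 0.26, and 0.69 with the GC- and length-corrected offsets). The median of the glycolysis list was -0.51, and 0.51 with library sizes alone. Corrected for GC content and length, 3 of its genes were lower and 2 higher, and without wt replicate 2 and replicate 1 labelled KO#2 3 and 2. Omitting wt replicate 2 or 3 or replicate 2 labelled KO#2 singly left 3 lower, and omitting replicate 1 labelled KO#2 4. None of 20 cholesterol synthesis genes was called, 3 of them had an unadjusted p under 0.05, and DESeq2 called 1 higher and 1 lower.

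Genes of the p53 pathway went both ways. Trp53 itself had 213, 261 and 273 CPM in wt cells and 145, 104 and 114 CPM in those labelled KO#2 (log2 fold change -1.04, SE 0.26, adjusted p = 0.00439, edgeR), but its log2 fold change was 0.01 with library sizes alone. Its targets Bax, a pore-forming effector of apoptosis (378, 345 and 317 CPM against 61.9, 89.5 and 95.7 CPM, log2 fold change -2.07, SE 0.23, adjusted p = 6.87e-06, edgeR), Pmaip1, also known as Noxa (-1.61, SE 0.30), and the cell cycle inhibitor Cdkn1a (-1.40, SE 0.34) were lower. In all, 5 of 15 genes of this list were lower and 2 higher, among the latter the stress-response gene Sesn1 (1.27, SE 0.35), and the median of the list was 0.10. With library sizes alone 1 was lower and 8 higher. In the apoptosis list, 4 of 12 were lower and 1, Casp9, the initiator caspase of the mitochondrial pathway, was higher (5.63, 4.11 and 7.91 CPM against 17.7, 12.1 and 13.6 CPM, log2 fold change 1.28, SE 0.28, adjusted p = 0.00194, edgeR). Without wt replicate 3 or replicate 1 labelled KO#2 2 of the list were lower, and with library sizes alone 1 was lower and 5 higher. Interferon and antigen presentation genes had 2 of 14 higher, among them the class I gene H2-K1 (1.17, SE 0.28), and 2 lower, with Ifitm3 at -1.47 (SE 0.38).

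Imprinted genes had 9 of 23 higher and 2 lower, with a median of 0.71. The antisense RNA Kcnq1ot1, which silences its cluster in cis, had 30.0, 23.5 and 15.6 CPM in wt cells and 407, 244 and 152 CPM in those labelled KO#2 (log2 fold change 3.54, SE 0.43, adjusted p = 1.75e-05, edgeR), and Cdkn1c, a growth inhibitor of that cluster, had 38.5, 35.8 and 42.5 CPM against 3.24, 5.42 and 8.08 CPM (log2 fold change -2.80, SE 0.51, adjusted p = 0.000439, edgeR). The longest annotated transcript of Kcnq1ot1 has 93092 bases, and its value with the GC- and length-corrected offsets was 1.31, still called. Further rises were seen for Peg13 (3.35, SE 0.44), Peg10 (2.50, SE 0.55) and H19 (2.40, SE 0.77), and Nnat fell by 2.97 (SE 0.47). H19 was not called without wt replicate 1 or 2 or replicate 2 labelled KO#2 (1.55 to 2.50). Without wt replicate 2 and replicate 1 labelled KO#2, 3 of the list were higher and 2 lower. Peg13 lies within Trappc9 on the same strand in the annotation, where counts can be shared. Xist, the RNA that coats the inactive X chromosome, had 5.16, 2.00 and 1.67 CPM in wt cells and 37, 40.9 and 28.7 CPM in those labelled KO#2 (log2 fold change 3.57, SE 0.47, adjusted p = 3.52e-05, edgeR), and 3.96 at 0 h. Its value with the GC- and length-corrected offsets was 2.37. Xist is overlapped by its antisense partner Tsix, and the use of strand in the counting is not given in the sources used here. The Y-linked gene Ddx3y, a helicase of the male-specific region, was low, with 0.117, 0.20 and 0 CPM in wt cells and 0.836, 1.16 and 1.69 CPM in those labelled KO#2. Feeder fibroblasts can carry RNA of either sex, and their part in these values was not tested. The same limit of strand applies to other named genes with an antisense neighbour, among them Gata6, Sox17, Baiap2l1, Nnat, Mid1 and Pdgfra.

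Among abundant genes, the largest differences concerned some that were nearly silent in one group. Baiap2l1, an adaptor of membrane and actin shape, had 1.53, 0.701 and 2.1 CPM in wt cells and 167, 169 and 180.1 CPM in those labelled KO#2 (log2 fold change 6.85, SE 0.38, adjusted p = 3.92e-09, edgeR). Ehd3, of endosomal recycling, had 1.06, 1.2 and 1.36 CPM against 46.7, 53.8 and 50.1 CPM (5.37, SE 0.32), the kelch protein gene Ipp 1.41, 1.6 and 1.85 CPM against 49.9, 60.9 and 90.0 CPM (5.36, SE 0.53), and Eno1b 7.86, 14.4 and 9.39 CPM against 315, 219 and 367 CPM (4.84, SE 0.38). Eno1b is a near copy of Eno1, and reads may be split between them. Klb, the co-receptor of endocrine FGFs, was higher (4.64, SE 0.41), as was Pramel7, which promotes naive pluripotency, with 6, 0 and 0 counts in wt cells and 80, 570 and 75 counts in those labelled KO#2. In the other direction, Nod1, a sensor of bacterial peptidoglycan, had 18.5, 15.7 and 30.5 CPM in wt cells and 0.836, 0.658 and 0.869 CPM in those labelled KO#2 (log2 fold change -4.77, SE 0.40, adjusted p = 3.18e-07, edgeR), and the myosin gene Myo1f 17.6, 17 and 8.09 CPM against 0.105, 0.542 and 0.391 CPM (-5.28, SE 0.47). Xaf1, an interferon-inducible antagonist of the inhibitor of apoptosis XIAP, fell by 3.93 (SE 0.37), Pbld2 by 3.64 (SE 0.52) and the ubiquitin ligase gene Mid1 by 3.63 (SE 0.56). Against the same wt libraries, KO#1 had log2 fold changes of 7.11 for Baiap2l1, 5.60 for Ehd3, -5.11 for Nod1 and -1.73 for Xaf1. These comparisons share their controls, and no test of the likeness between clones was made.

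Some genes were at or under the floor of 3 counts in every library of one group. In wt cells 65 genes were so while standing at 1 CPM or more in all 3 libraries labelled KO#2, of which 20 were protein-coding and 27 processed pseudogenes. Kbtbd11 had 0, 0 and 0 counts in wt cells and 6.11, 8.36 and 2.48 CPM in those labelled KO#2, at least 18.8-fold higher when the mean is set against 3 counts in the wt library where they are worth most. In the opposite direction there were 20 genes, 11 of them protein-coding. Apoa2, an apolipoprotein of high-density lipoprotein, had 32.9, 24.1 and 29.6 CPM in wt cells and 3, 0 and 0 counts in those labelled KO#2, at least 184-fold lower. The neighbouring genes Olig2 and Olig1, transcription factors of the oligodendrocyte and motor neuron lineage, lie on GRCm38 at chr16:91225457-91228677 and chr16:91269772-91271933. Olig2 had 9.86, 11 and 11.8 CPM against 0, 0 and 0 counts and Olig1 2.64, 3.11 and 3.52 CPM against 0, 2 and 0 counts, at least 69.5-fold and 19.7-fold lower. At 0 h, Olig2 had 19.2 to 35.8 CPM in wt cells and 0 in all 3 libraries labelled KO#2. It was also at 0 in the 3 KO#1 libraries at 24 h. For these genes the fold is computed from the mean level in wt cells against 3 counts in the library labelled KO#2 where they are worth most.

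By annotated type, noncoding genes went both ways. The short structural types were mostly lower, with 12 of 15 scaRNAs and 11 of 17 misc_RNA genes beside the snoRNAs and snRNAs given above, and of 217 antisense genes 35 were higher and 37 lower. Of 761 processed pseudogenes, 407 were higher and 12 lower, with a median log2 fold change of 1.70. Their reads can be shared with the parent genes, which makes single values uncertain. Of 443 unspliced transcripts awaiting experimental support (type TEC), 253 were higher, and of 74 sense intronic RNAs 44. KO#1 had medians of -0.06, -0.34 and -0.50 for these types. The share of counts on processed pseudogenes was nevertheless higher in KO#1 than in wt cells at 24 h. It was 0.106 to 0.151% in wt cells, 0.432 to 0.575% in KO#1 and 0.911 to 1.16% in those labelled KO#2. By chromosome, medians of the log2 fold change on the autosomes ran from -0.01 on chromosome 17 to 0.59 on chromosome 1, where 342 of 1081 genes were higher and 111 lower. Chromosome 16 was next, at 0.44, and the X chromosome was at 0.37. With the GC- and length-corrected offsets chromosomes 1 and 16 remained the highest autosomes, at 0.36 and 0.30. At 0 h chromosome 1 had a median of 0.62, and in KO#1 at 24 h -0.03.

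The same clones were compared at 0 h in other libraries, before induction. There, 6329 genes were called, or 38.1%. Calls of one direction at both times numbered 3206, which was 51.7% of the 24 h calls and 50.7% of the 0 h calls, and 69 were called in opposite directions. The difference between the time points was itself called for 244 genes, or 1.47%, by an interaction term in the same model. The count was 447 with the replicate number as a block and 498 with the GC- and length-corrected offsets, which shared 237 and 223 genes with the 244. Naive factors were among them. Tbx3 had a log2 fold change of -1.13 at 0 h and 3.08 at 24 h, a difference of 4.21 (SE 0.66, adjusted p = 0.00551, edgeR). Klf5 went from -1.28 to 1.92, Klf4 from -1.09 to 1.86 and Klf2 from -1.73 to 0.37, and each of these differences was called. Eomes had -1.87 at 0 h and 2.45 at 24 h (difference 4.33, SE 0.49, adjusted p = 0.000437, edgeR), and Axin2 had -1.51 and 1.56. Other differences ran the opposite way. Xaf1 had 0.26 at 0 h and -3.93 at 24 h, and Cdkn1c had 0.56 and -2.80. For Hmga1, Pou3f1 and Suz12 the difference between times was 0.14 (SE 0.51), 0.50 (SE 0.53) and 0.35 (SE 0.30), and none was called.

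**Figure D5:**
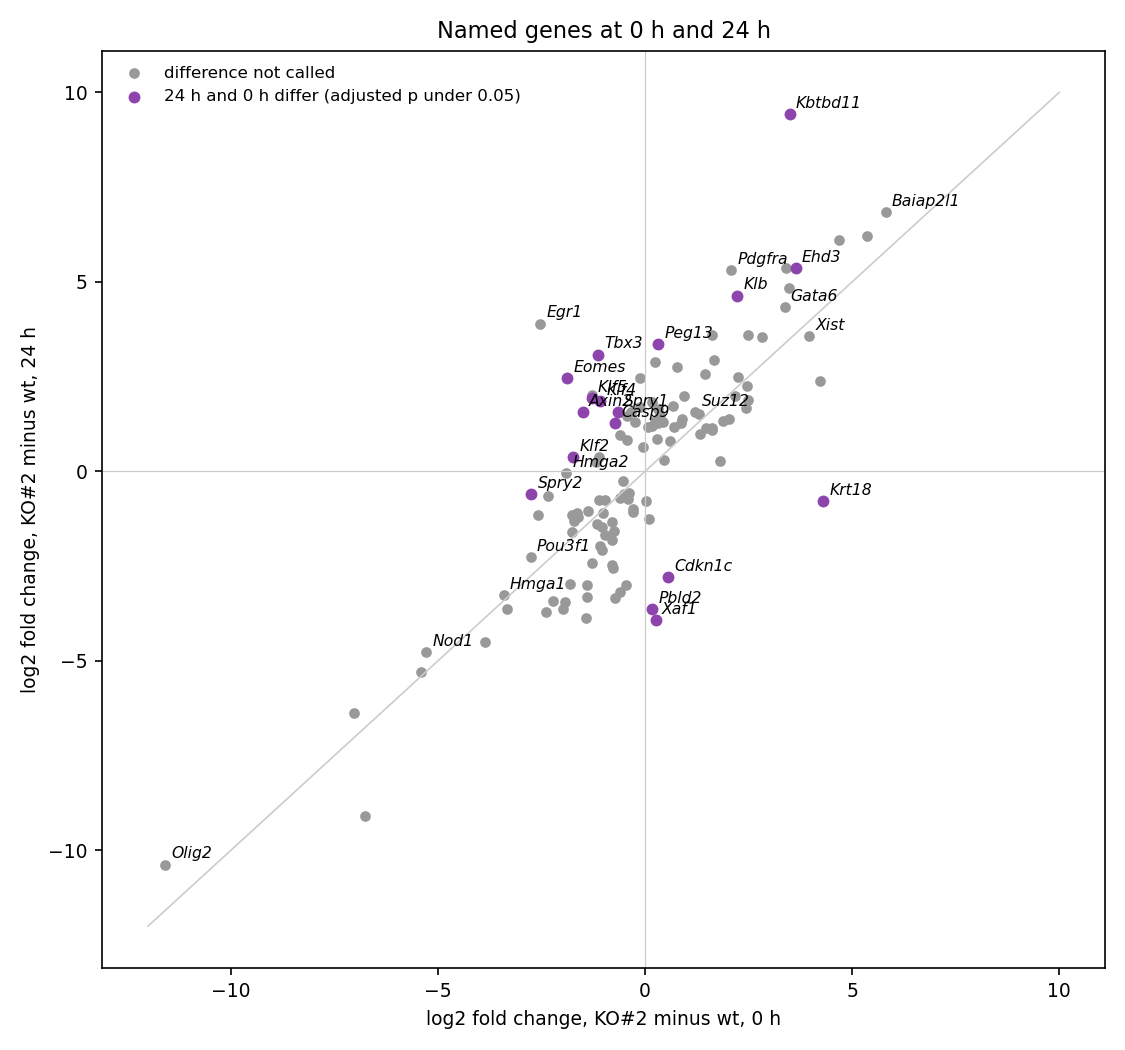
Log2 fold changes between the libraries labelled KO#2 and wt cells at 0 h (horizontal axis) and 24 h (vertical axis) for the named genes, with the diagonal of equal values in grey. Purple points are genes whose difference between the time points was called, such as Tbx3 and Eomes above the diagonal and Xaf1 and Krt18 below it, and values of genes with 0 counts in a group, such as Olig2, depend on the prior count.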

How the data were processed

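The authors made stranded total-RNA libraries, sequenced them as read pairs, trimmed the reads with Trim Galore, removed ribosomal RNA reads and aligned to GRCm38 with STAR, per the study's methods. The deposited table holds raw counts per Ensembl gene for 18 libraries in 6 groups (wt, KO#1 and KO#2 at 0 h and 24 h, 3 each). The counter's strand setting and annotation release are not given in the sources used here. Total counts per library give the depth, and counting floors cover sampling error only.

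From these counts, genes were filtered with filterByExpr (minimum count 10) and fitted over all 18 libraries with edgeR 4.0.16 in R 4.3.3 by its quasi-likelihood test with TMM factors and Benjamini-Hochberg adjustment over 16619 genes. A gene was called at an adjusted p under 0.05. The standard error (SE) was derived from the F statistic. Gene types, positions, lengths and GC content came from GENCODE M21, which matched 45143 of 45706 identifiers. The members and gene lists were chosen with earlier results of these data known. Named genes were the targeted and study genes, the 10 largest changes in each direction among abundant non-overlapping coding genes, up to 4 called members of each list in each direction with uncalled members where a list needed them, genes at 3 counts or fewer in one group, and the 5 most abundant noncoding genes. Some genes that this rule allowed were left out. In data simulated from these libraries, 75% of genes changed 4-fold and 7.69% of those changed 2-fold were recovered (15850 genes). There the 2 groups had equal levels except in 96 genes changed 4-fold and 104 changed 2-fold, without a difference in composition. In the data 37.3% of genes were called and composition differed, so these rates do not measure recovery here.

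Alternatives were DESeq2 1.42.0, its size factors in edgeR, library sizes alone, other filters and thresholds, thinning, GC-corrected offsets (natural splines with 5 degrees of freedom), the replicate block, protein-coding genes alone, the 6 libraries alone and each library left out. Offsets corrected for GC content and length, and the omission of 2 libraries together, were added after the data had been seen. Plots were drawn with matplotlib 3.10.9, and permutation tests used scipy 1.17.1.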

Additional observations from a re-analysis of the deposited data

Results flagged for a closer look

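For the genes below the difference between the libraries labelled KO#2 and wt cells was itself different at 24 h and at 0 h by the interaction test in edgeR, among 244 genes so called (447 with the replicate block and 498 with the GC- and length-corrected offsets). The 17 genes named here were called in each of these 3 fits. Values are the log2 fold change at 24 h minus that at 0 h. Among naive factors they were 4.21 for Tbx3 (adjusted p = 0.00551, edgeR), 3.21 for Klf5, 2.94 for Klf4 and 2.11 for Klf2. In the libraries labelled KO#2 each of these genes had a negative log2 fold change at 0 h, not called for Tbx3, and a positive one at 24 h, not called for Klf2. In signalling, the difference was 3.07 for Axin2, 2.23 for Spry1 and 2.14 for Spry2, and the log2 fold changes of Spry2 were -2.75 at 0 h and -0.61 at 24 h. For the T-box gene Eomes it was 4.33 (adjusted p = 0.000437, edgeR), for the caspase gene Casp9 2.02, and for the imprinted gene Peg13 3.03.

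Some genes were higher at both times and more so at 24 h. Ehd3 had a difference of 1.73 and Klb of 2.41. Kbtbd11 had a fitted difference of 5.93, which depends on the prior count because the wt libraries at 24 h had no count. At 0 h its levels were 0.826 to 1.31 CPM in wt cells and 7.58 to 14.9 CPM in those labelled KO#2.

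In the opposite direction the difference was -4.19 for Xaf1, -3.81 for Pbld2 and -3.36 for Cdkn1c. Pbld2 stood at 0.918 to 1.83 CPM in wt cells at 0 h and at 22.4, 38.1 and 19.8 CPM in wt replicates 1, 2 and 3 at 24 h, while the libraries labelled KO#2 had at most 2.74 CPM at 24 h. For Krt18 the difference was -5.09, and its levels in the 0 h libraries labelled KO#2 ranged from 7.1 to 79.2 CPM. The 0 h cells were taken before induction and the 24 h cells after plating on Geltrex in another medium. The culture and the time therefore cannot be told apart in any of these differences. The methods give feeders for the routine culture, and do not state whether any were present in the cells harvested for these libraries.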

How the results depend on the processing

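The sizes of the groups compared, 3 libraries each from a single clone, limit every result, and depth limits genes under the floor of 3 counts. Against 6197 called genes (3536 higher, 2661 lower), requiring at least 10 counts in every library gave 4100 called and 2314 higher, library sizes alone 10208 called, 9676 higher and 532 lower, an adjusted p under 0.01 gave 3595, 1935 and 1660, thinning to the smallest total gave 2326 higher, and omitting wt replicate 2 and replicate 1 labelled KO#2 together gave 3169, 1731 and 1438. The stricter p-value threshold lowers the count by construction. The causes of the other changes were not tested. Leaving out each library in turn gave 4562 to 5981 called, 2486 to 3517 higher and 1942 to 2464 lower, and the lowest total was without replicate 1 labelled KO#2. DESeq2 called 6687 genes, of which 6055 were among the 6197, and the GC- and length-corrected offsets 6031, of which 4634 were. Deviations of same-numbered libraries had correlations of -0.128 to 0.00347, and those of differently numbered ones -0.104 to 0.165. The labels do not say whether equal numbers share a day or culture, and these few correlations cannot settle it. With the replicate block 6437 genes were called, and 3 of the named genes lost their call. The interaction between times was called for 447 genes with the block and 498 with the GC- and length-corrected offsets, against 244. The log2 fold change of Hmga2 changed sign to 0.11 with at least 10 counts in every library, 1.01 with library sizes alone, 0.034 with protein-coding genes alone and 0.49 after thinning, and ranged from -0.82 to 0.27 with each library left out. The correlation of GC content with the log2 fold change, -0.261 over all genes, was -0.0156 with the GC- and length-corrected and -0.0228 with the GC-corrected offsets, as these remove it by construction, -0.337 without both libraries named above and -0.319 to -0.176 with each library left out. The difference in protein-coding share ranged from 22.3 to 33.2 percentage points with each library left out. Of 126 named genes, with library sizes alone the sign changed for Emd (0.32), Pou5f1 (0.26), Dnmt3a (0.30), Fgf5 (0.70), Spry2 (0.43), Sparc (0.46), Rbbp4 (0.43), Setdb1 (0.27), Suv39h1 (0.24), Trp53 (0.0096) and Krt18 (0.24), and for Lin28a (0.36). It also changed for Apc under the GC- and length-corrected offsets (-0.16, and -0.16 with the block), for Lmnb1 without replicate 1 labelled KO#2 (-0.098, range -0.10 to 0.47 over single omissions, and -0.22 with wt replicate 2 left out as well), and for Fgf5 without replicate 2 labelled KO#2 (0.045) or wt replicate 3 (0.24, range -0.55 to 0.24). Leaving out wt replicate 2 and replicate 1 labelled KO#2 together ended the call of 36 named genes.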
